A study of Mus musculus with 24 samples.

Results

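The cell cycle and DNA replication genes described here are 42 genes picked by symbol, 23 that act in licensing and copying DNA and 19 that act in mitosis. Of these, 41 were measured among 18193 genes on the arrays, all 23 replication genes and 18 of the mitosis genes; Ccnb1, whose symbol stood alone on no probe set, was not analysed here. Each gene was read from the probe set (a group of short array oligonucleotides that report 1 transcript region) with the highest mean over the 24 arrays among those with a single symbol. They were picked with earlier results of these data known, so counts of members are not independent of these data. Values are log2 array signals, so a difference of 1 is a 2-fold difference in signal. A filter that keeps genes whose highest group mean reaches the lower quartile of all values would keep 40 of the 41. A second mark was the lowest of the arrays' own lower quartiles (5.29). Cdc6 lay below this second mark in 6 of the 8 groups and Ccne2 in 4.

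RNA came from macrophages grown for 6 days from the bone marrow of male mice, 3 mice per genotype, with 3 culture wells pooled per RNA sample. All 4 strains lacked Il10, an anti-inflammatory cytokine gene: C57BL/6J-Il10tm1Cgn (B6), resistant to colitis; C3H/HeJBir-Il10tm1Cgn (C3Bir), susceptible; B6.Cg-Il10tm1Cgn Cdcs1 (BC-R3), which is B6 with the C3Bir version of the Cdcs1 colitis locus; and C3Bir.Cg-Il10tm1Cgn Cdcs1 (CB-R1), which is C3Bir with a long B6 piece of chromosome 3 that includes Cdcs1. Each strain was measured unstimulated and after Cbir1 flagellin, a bacterial protein, at 1 µg/mL for the last 4 hours, with 3 arrays in each of the 8 groups. The labels do not tie an array number to a mouse, so a p-value here reflects only how far replicate arrays spread. The culture medium is described as RPMI1640 with fetal calf serum, and no added growth factor is named.

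Before a cell copies its DNA, the loaders Cdc6 and Cdt1 place the ring of Mcm2 to Mcm7 on replication origins, and the E2F factors with cyclin E turn on the genes of S phase, the phase of DNA synthesis. The clamp Pcna, its loader with Rfc subunits, and enzymes that supply nucleotides such as ribonucleotide reductase then serve the replication fork. Later, cyclins A and B with Cdk1 drive entry into mitosis, Aurora and Polo kinases and motor proteins build the spindle, and Cdc20 starts the separation of chromosomes once the spindle checkpoint is satisfied. Bone marrow cultures can hold dividing precursors beside macrophages, most of which have left the cell cycle. In bulk RNA, fewer cells of a type and less RNA per cell cannot be told apart.

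Markers of macrophages were high in every group, with array means of 12.11 to 12.59 over 10 genes such as Csf1r and Adgre1. The unstimulated B6 and C3Bir groups were not uniform. The mean of 15 inflammatory cytokine genes was 8.42, 10.66 and 10.71 on the 3 unstimulated B6 arrays and 7.35, 9.24 and 9.18 on those of C3Bir, while every other array lay between 7.12 and 8.58. Arrays 2 and 3 of these groups are called the 4 arrays with high cytokine means, and counts are given with and without them. Leaving them out keeps 1 array in each of these groups, which makes those fits less precise. A call lost there can reflect that loss of precision and is not by itself a result about the members. Unstimulated BC-R3 also held an array apart, with cytokine means of 8.58, 7.45 and 7.34. The mean of 15 interferon-stimulated genes was 11.74, 12.55 and 12.60 on the unstimulated B6 arrays and no higher than 11.45 on any other, so B6 array 1, the array of its group that remains when the 4 are left out, also stood apart on that list. No array of the flagellin groups is among the 4. Array medians over all probe sets lay between 6.55 and 6.64.

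Promoter sequence of 4 members is shown first as examples of the control motifs known for these genes, E2F sites for S phase and CHR with CCAAT for mitosis. The RefSeq promoter table (GRCm38.p6) holds 33 of the 41 members, 19 of replication and 14 of mitosis, each with 250 bases before the start site and 50 after. Capitals mark every match on either strand to an E2F-type motif (TTTCGCGC, TTTGGCGC, TTTCCCGC or TTTGCCGC), to the cell cycle homology region known as CHR (TTTGAA or TTCGAA) or to the CCAAT box (CCAAT). The 150 bases before the start site are printed 5′ to 3′ on the gene's strand, and the 4 genes were chosen after their values and matches had been seen. Mcm6 (replication, helicase subunit) is at chr1:128359706-128359855 on the minus strand, Cdc20 (mitosis, activator of the anaphase-promoting complex) at chr4:118437344-118437493 on the minus strand, Cdk1 (mitosis, kinase) at chr10:69352913-69353062 on the minus strand and Birc5 (mitosis, survivin) at chr11:117849087-117849236 on the plus strand.
Mcm6: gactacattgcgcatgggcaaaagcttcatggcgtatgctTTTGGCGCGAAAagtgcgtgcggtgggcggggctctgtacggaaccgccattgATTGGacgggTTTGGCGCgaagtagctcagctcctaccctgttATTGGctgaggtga
Cdc20: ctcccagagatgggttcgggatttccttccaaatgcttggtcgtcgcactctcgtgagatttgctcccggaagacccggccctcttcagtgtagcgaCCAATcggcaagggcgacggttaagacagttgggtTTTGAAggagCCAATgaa
Cdk1: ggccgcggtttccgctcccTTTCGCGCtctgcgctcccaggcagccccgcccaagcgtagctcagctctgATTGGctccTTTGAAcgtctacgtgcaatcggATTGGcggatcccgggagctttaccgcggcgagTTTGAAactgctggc
Birc5: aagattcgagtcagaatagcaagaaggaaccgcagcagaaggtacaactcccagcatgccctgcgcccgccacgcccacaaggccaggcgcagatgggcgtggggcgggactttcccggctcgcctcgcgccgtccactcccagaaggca

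The printed Mcm6 stretch holds E2F-type matches starting at -110, -106 and -47 from the start site, the first 2 overlapping, with CCAAT boxes at -57 and -14. That of Cdc20 holds CHR at -18 between CCAAT boxes at -53 and -8. Cdk1 holds an E2F-type match at -131, CHR at -71 and -15, and CCAAT at -80 and -48, and the Birc5 stretch has no match to these letters. Over the whole 300-base windows an E2F-type match was present in 8 of 19 replication genes (42.1%), 1 of 14 mitosis genes (7.14%) and 2.61% of all 27025 genes of the table. CHR and CCAAT together were present in 4 of 19 replication genes (21.1%), 11 of 14 mitosis genes (78.6%) and 9.65% of all genes. CHR with or without CCAAT was present in 21.7% of all genes, and CCAAT in 41.1%. These matches are a description of sequence and were not tested.

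As list means, the cell cycle genes were highest in CB-R1 macrophages, with and without flagellin. The replication mean was lowest in unstimulated B6 (7.57), though array 1 of that group (7.73) lay above unstimulated C3Bir array 3 (7.61). The mitosis mean was about equally low in B6 without and with flagellin (7.39 and 7.41). A CB-R1 group had the highest of the 8 group means for 18 of 23 replication genes and for 17 of 18 mitosis genes. Unstimulated B6 had the lowest for 18 replication and 9 mitosis genes, and B6 with flagellin for 6 further mitosis genes. These counts of highest and lowest groups were not made over all genes, so no share stands beside them. All 6 CB-R1 arrays lay above all 18 other arrays for 17 of 41 members, against 0.835% of all genes (152 of 18193). These were the helicase subunits Mcm4, Mcm5, Mcm6 and Mcm7, the loader Cdc6 and the nucleotide enzymes Rrm1, Rrm2 and Tk1 among replication genes, and Ccna2, Cdk1, Plk1, Aurka, Top2a, Birc5, Nusap1, Prc1 and Cdc20 among mitosis genes.

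**Figure D1:**
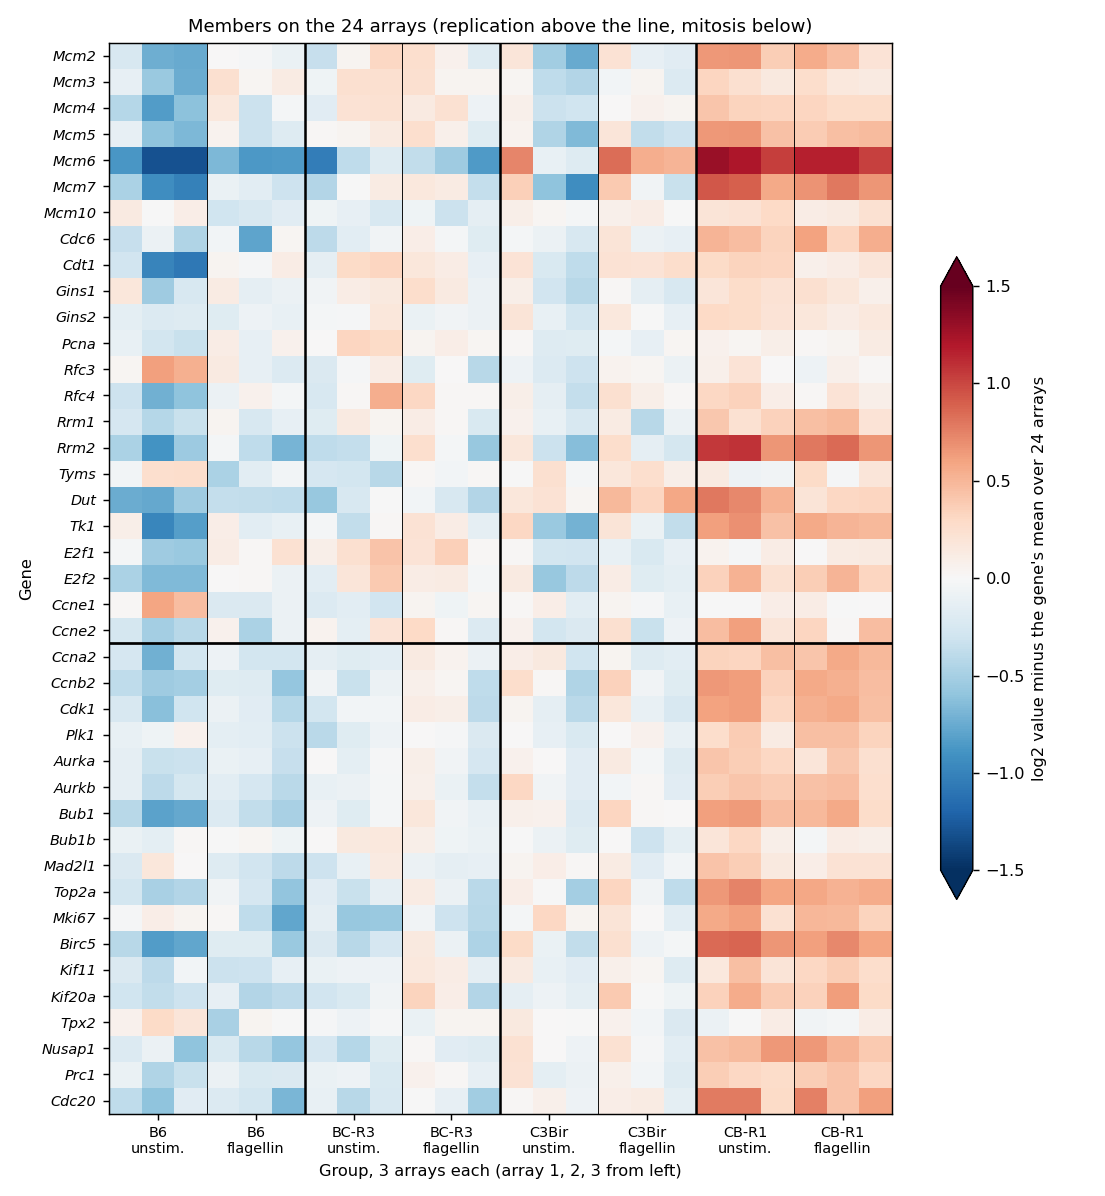
Heat map of the 41 members (rows, replication above mitosis) over the 24 arrays (columns, ordered by group), coloured by the log2 value minus that gene's mean over all arrays. The CB-R1 columns are above the gene means for most rows, and unstimulated arrays 2 and 3 of B6 are below for most replication genes.

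As array means, the 23 replication genes read 8.40, 8.39 and 8.26 in unstimulated CB-R1 and 8.29, 8.27 and 8.26 in CB-R1 with flagellin. The next highest arrays, 1 of C3Bir with flagellin at 8.14 and 1 of unstimulated C3Bir at 8.09, lay below all of these. Unstimulated B6 read 7.73, 7.47 and 7.50. The mitosis genes read 8.11, 8.17 and 8.01 in unstimulated CB-R1 and 8.07, 8.11 and 8.02 with flagellin, while no other array passed 7.83. The replication means differed more between arrays of a group than the mitosis means did in unstimulated C3Bir (7.61 to 8.09 against 7.48 to 7.78) and BC-R3 (7.75 to 8.07 against 7.46 to 7.57).

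**Figure D2:**
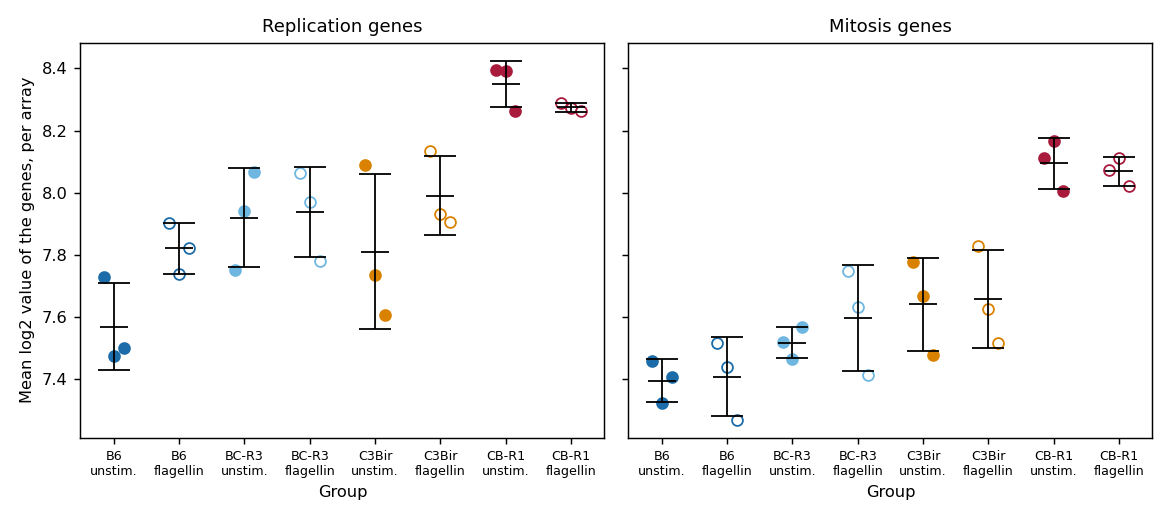
Mean log2 value of the 23 replication genes (left) and the 18 mitosis genes (right) on each array, by group; filled points are unstimulated arrays, open points flagellin, and bars the group mean ± SD of 3 arrays; dark blue is B6, light blue BC-R3, orange C3Bir and dark red CB-R1. The 6 CB-R1 arrays lie between 8.26 and 8.40 for replication and between 8.01 and 8.17 for mitosis, above all other arrays in both panels.

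Whether the genetic background shifts these genes was asked by setting the mean of the C3Bir-background strains (C3Bir and CB-R1) against the mean of the B6-background strains (B6 and BC-R3). In unstimulated cells 25 of 41 members were higher on the C3Bir background and none lower, against 11.2% of all genes higher and 7.09% lower (limma, Benjamini-Hochberg adjusted p under 0.05 over all genes, which defines a call throughout). They were 9 of 23 replication genes and 16 of 18 mitosis genes. The median difference was 0.28 for replication and 0.42 for mitosis, where that of all genes was 0.01. With flagellin 22 were higher and none lower, against 8.74% and 6.17% of all genes, again 16 of 18 mitosis genes but 6 of 23 replication genes. Medians there were 0.18, 0.37 and 0.03. The C3Bir-background mean includes CB-R1, the strain with the highest levels. C3Bir alone against B6 had 10 members called unstimulated and 5 with flagellin, described below. The replication mean of C3Bir was below that of BC-R3 in unstimulated cells (7.81 against 7.92), and with flagellin it was 7.99 against 7.94. For mitosis C3Bir read 7.64 against 7.52 in BC-R3 unstimulated, and 7.66 against 7.60 with flagellin. Without the 4 arrays with high cytokine means, 20 members were called in unstimulated cells (9 replication, 11 mitosis) and 24 with flagellin (8 and 16).

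**Figure D3:**
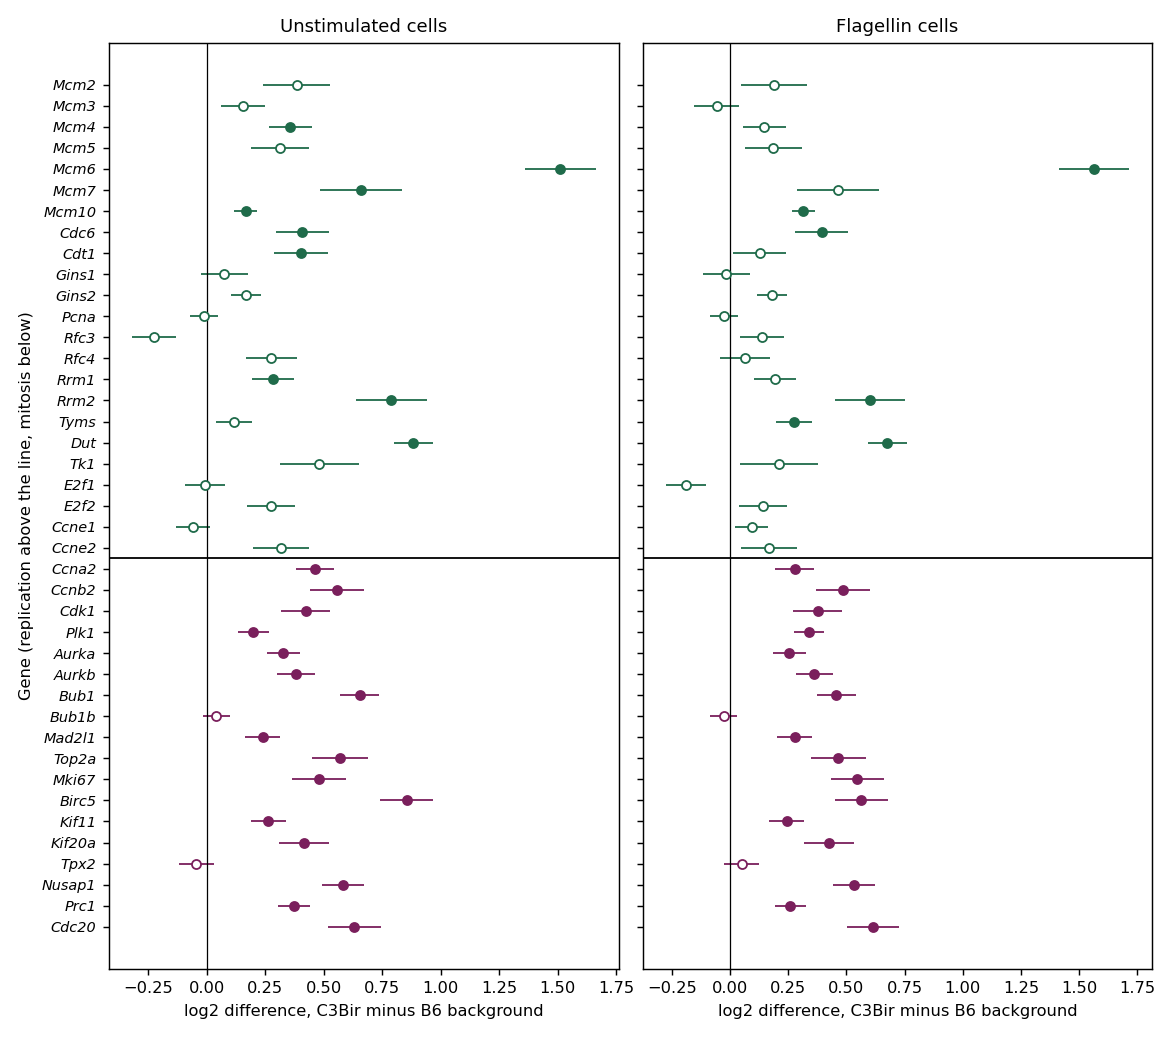
Difference of each member between the C3Bir background and the B6 background (log2, C3Bir background minus B6 background, point ± SE), unstimulated and with flagellin; filled points are called by limma. Mcm6 stands farthest to the right at 1.51 and 1.57, and 16 of the 18 mitosis genes are filled in each condition.

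Among the helicase genes, Mcm6 had the largest background difference of any member. Mcm6 without flagellin read 8.38, 7.94 and 7.94 on the B6 arrays, 8.21, 8.87 and 9.06 on BC-R3, 9.98, 9.14 and 9.05 on C3Bir and 10.54, 10.45 and 10.28 on CB-R1. With flagellin Mcm6 read 8.58, 8.39 and 8.40 on B6, 8.88, 8.71 and 8.40 on BC-R3, 10.09, 9.79 and 9.76 on C3Bir and 10.41, 10.41 and 10.28 on CB-R1. The B6 and BC-R3 arrays lay between 7.94 and 9.06 in both conditions, and the C3Bir arrays overlapped the top of that range at 9.05 in unstimulated cells while all CB-R1 arrays lay at or above 10.28. The background difference was 1.51 ± 0.15 unstimulated (adjusted p = 4.17e-07) and 1.57 ± 0.15 with flagellin (adjusted p = 2.65e-07). A second probe set of Mcm6 gave 1.58 and 1.62, and another, with a mean signal of 4.1, gave 0.23 and 0.15. The unstimulated difference was 1.66 (adjusted p = 5.9e-06) when the 4 arrays were left out.

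The other helicase genes gave smaller values than Mcm6. Mcm7 differed by 0.66 ± 0.18 between backgrounds in unstimulated cells (adjusted p = 0.011) and by 0.46 ± 0.18 with flagellin, where it was not called (adjusted p = 0.0851). Mcm4 was called in unstimulated cells at 0.36 ± 0.09. Mcm2, Mcm3 and Mcm5 were called in neither condition, with differences of 0.39, 0.16 and 0.31 unstimulated and 0.19, -0.06 and 0.19 with flagellin. Mcm10, which helps the helicase start unwinding, was higher in both conditions by 0.17 and 0.31. Gins1 and Gins2, subunits of a helicase partner, were not called, at 0.08 and 0.17 unstimulated. The loader Cdc6, although dim, was higher by 0.41 and 0.39, and Cdt1 by 0.40 in unstimulated cells, with 0.13 not called under flagellin.

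The clamp and its loader showed no called background difference. Pcna, the brightest member, lay between 12.55 and 13.20 on all 24 arrays, with a background difference of -0.01 ± 0.06 unstimulated and -0.03 ± 0.06 with flagellin. Rfc3 gave -0.22 and 0.14, and Rfc4 0.28 and 0.06.

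Of the 5 genes of nucleotide supply 3 were called in each condition. Dut, which removes dUTP from the nucleotide pool, was higher on the C3Bir background by 0.88 ± 0.08 unstimulated (adjusted p = 2.32e-07) and 0.67 ± 0.08 with flagellin (adjusted p = 7.95e-06). Dut without flagellin read 6.10, 6.08 and 6.32 on the B6 arrays, 6.29, 6.62 and 6.85 on BC-R3, 7.02, 7.07 and 6.88 on C3Bir and 7.64, 7.57 and 7.37 on CB-R1. In these cells no B6 or BC-R3 array reached the lowest C3Bir or CB-R1 array. Rrm2, the regulated small subunit of ribonucleotide reductase, was higher by 0.79 ± 0.15 (adjusted p = 0.000903) and 0.60 ± 0.15 (adjusted p = 0.00939). Rrm2 without flagellin read 7.85, 7.43 and 7.78 on the B6 arrays, 7.95, 7.97 and 8.26 on BC-R3, 8.49, 8.01 and 7.69 on C3Bir and 9.38, 9.42 and 8.98 on CB-R1. With flagellin Rrm2 read 8.30, 7.94 and 7.63 on B6, 8.58, 8.30 and 7.76 on BC-R3, 8.58, 8.19 and 8.06 on C3Bir and 9.12, 9.18 and 8.99 on CB-R1. The C3Bir arrays overlapped those of B6 and BC-R3, and the 6 CB-R1 arrays stood above all others. Both other probe sets of Rrm2 moved the same way, by 0.58 and 0.85 unstimulated. Rrm1, the large subunit, was higher by 0.28 unstimulated and not called with flagellin (0.19). Tyms, thymidylate synthase, was called with flagellin only, at 0.27 against 0.12, a contrast between conditions that was not tested, and its other 3 probe sets gave -0.03 to 0.10 with flagellin. Tk1, thymidine kinase, was not called at 0.48 and 0.21.

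None of the factors that start S phase was called. E2f1 gave -0.01 ± 0.09 and -0.19 ± 0.09, and E2f2 0.27 and 0.14, none of them called. Ccne2, one of the cyclin E genes, lay near the floor of the arrays (4.82 to 5.95) and gave 0.32 and 0.17, neither called. Ccne1, the other, gave -0.06 and 0.09 and is described with the B6 cells below, where it was called.

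Of the 18 mitosis genes 16 were called in both conditions. Birc5, survivin, a subunit of the Aurora B complex, showed the largest unstimulated difference among them, 0.85 ± 0.11 (adjusted p = 1.67e-05) and 0.56 ± 0.11 with flagellin (adjusted p = 0.00151). Birc5 without flagellin read 7.94, 7.53 and 7.59 on the B6 arrays, 8.14, 7.95 and 8.11 on BC-R3, 8.65, 8.26 and 7.995 on C3Bir and 9.22, 9.24 and 9.02 on CB-R1. With flagellin Birc5 read 8.18, 8.18 and 7.80 on B6, 8.51, 8.28 and 7.90 on BC-R3, 8.60, 8.28 and 8.33 on C3Bir and 8.98, 9.08 and 8.95 on CB-R1. All CB-R1 arrays were at or above 8.95, and no other array passed 8.65. It was 0.90 unstimulated (adjusted p = 0.00034) once the 4 arrays were left out.

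Of the genes that drive mitotic entry, Ccnb2 (cyclin B2) was higher on the C3Bir background by 0.56 ± 0.12 and 0.49 ± 0.12, Cdk1 by 0.42 ± 0.10 and 0.38 ± 0.10, and Ccna2 (cyclin A2) by 0.46 ± 0.08 and 0.28 ± 0.08, unstimulated and with flagellin. Cdk1 without flagellin read 8.72, 8.34 and 8.67 on the B6 arrays, 8.70, 8.92 and 8.93 on BC-R3, 9.002, 8.83 and 8.56 on C3Bir and 9.57, 9.59 and 9.28 on CB-R1. With flagellin Cdk1 read 8.88, 8.80 and 8.54 on B6, 9.07, 9.05 and 8.58 on BC-R3, 9.14, 8.85 and 8.72 on C3Bir and 9.50, 9.53 and 9.42 on CB-R1. Cdk1 was at or above 9.28 on every CB-R1 array and at or below 9.14 on all others. The C3Bir arrays overlapped those of B6 and of BC-R3 in both conditions. The kinases Plk1, Aurka and Aurkb were higher by 0.20, 0.33 and 0.38 unstimulated and by 0.34, 0.25 and 0.36 with flagellin, all called. Ccna2 is the one member on chromosome 3, the chromosome that carries Cdcs1. Its difference between the C3Bir and the B6 version of Cdcs1 was -0.06 ± 0.08 unstimulated and -0.17 ± 0.08 with flagellin, neither called. That difference is averaged over both backgrounds, so opposite effects in them would cancel. Within the C3Bir background, Ccna2 with flagellin was higher in CB-R1 than in C3Bir, a difference given below and not called.

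Spindle and chromosome genes were also higher on the C3Bir background. Nusap1, a spindle microtubule protein, was higher by 0.58 ± 0.09 and 0.53 ± 0.09, Top2a, the topoisomerase that untangles sister DNA, by 0.57 ± 0.12 and 0.47 ± 0.12, and Prc1, which bundles midzone microtubules, by 0.37 and 0.26. The motor genes Kif11 and Kif20a gave 0.26 and 0.41 unstimulated and 0.24 and 0.43 with flagellin, all called. Top2a without flagellin read 7.87, 7.66 and 7.70 on the B6 arrays, 7.97, 7.81 and 8.01 on BC-R3, 8.24, 8.14 and 7.64 on C3Bir and 8.79, 8.89 and 8.73 on CB-R1. With flagellin Top2a read 8.10, 7.89 and 7.56 on B6, 8.27, 8.06 and 7.74 on BC-R3, 8.47, 8.09 and 7.76 on C3Bir and 8.73, 8.66 and 8.70 on CB-R1. No array outside CB-R1 passed 8.47 for Top2a, and no CB-R1 array was below 8.66. Dimmer probe sets of Top2a differed less, by 0.19 and 0.02 unstimulated, as did that of Nusap1, by 0.06.

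Mki67, the gene of the proliferation antigen Ki-67, was higher by 0.48 ± 0.11 and 0.55 ± 0.11. Mki67 without flagellin read 8.67, 8.79 and 8.73 on the B6 arrays, 8.56, 8.12 and 8.14 on BC-R3, 8.66, 9.001 and 8.74 on C3Bir and 9.26, 9.31 and 8.93 on CB-R1. With flagellin Mki67 read 8.71, 8.31 and 7.91 on B6, 8.64, 8.39 and 8.28 on BC-R3, 8.89, 8.70 and 8.53 on C3Bir and 9.19, 9.18 and 9.02 on CB-R1. BC-R3 was the lowest group in unstimulated cells and B6 the lowest with flagellin. The C3Bir arrays overlapped those of B6 in both conditions and lay above those of BC-R3 in unstimulated cells. The unstimulated Mki67 difference was 0.44 and not called without the 4 arrays (adjusted p = 0.13).

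Of the genes of the spindle checkpoint and anaphase, Cdc20 was higher by 0.63 ± 0.11 (adjusted p = 0.000393) and 0.62 ± 0.11 (adjusted p = 0.000549). Cdc20 without flagellin read 7.44, 7.22 and 7.65 on the B6 arrays, 7.72, 7.41 and 7.59 on BC-R3, 7.84, 7.90 and 7.75 on C3Bir and 8.60, 8.61 and 8.11 on CB-R1. With flagellin Cdc20 read 7.62, 7.55 and 7.14 on B6, 7.82, 7.70 and 7.30 on BC-R3, 7.92, 7.95 and 7.67 on C3Bir and 8.58, 8.25 and 8.44 on CB-R1. Every CB-R1 array was above the 18 others, whose highest value was 7.95. Its other probe sets gave 0.43 and 0.12 unstimulated. Bub1, a checkpoint kinase, was higher by 0.65 ± 0.08 and 0.46 ± 0.08, but its second, dim probe set went the opposite way, by -0.22 (unadjusted p = 0.000779) unstimulated and by -0.07 with flagellin. Mad2l1 was higher by 0.24 and 0.28. Bub1b, a checkpoint partner of Bub1, and Tpx2, which targets Aurora A to the spindle, were the 2 mitosis genes called in neither condition, at 0.04 and -0.03 and at -0.04 and 0.05.

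Probe sets of the same gene did not always move together. Of the 25 members called between backgrounds in unstimulated cells 17 had another probe set, and for 2 of them another went the opposite way, 1 at an unadjusted p under 0.05. With flagellin these numbers were 22, 14, 4 and 0. For unstimulated BC-R3 against B6, described below, they were 19, 17, 7 and 2, for unstimulated CB-R1 against C3Bir 12, 10, 3 and 0, and for flagellin in B6 12, 11, 3 and 0. Whether sequence variants between strains under a probe contribute was not tested.

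**Figure D4:**
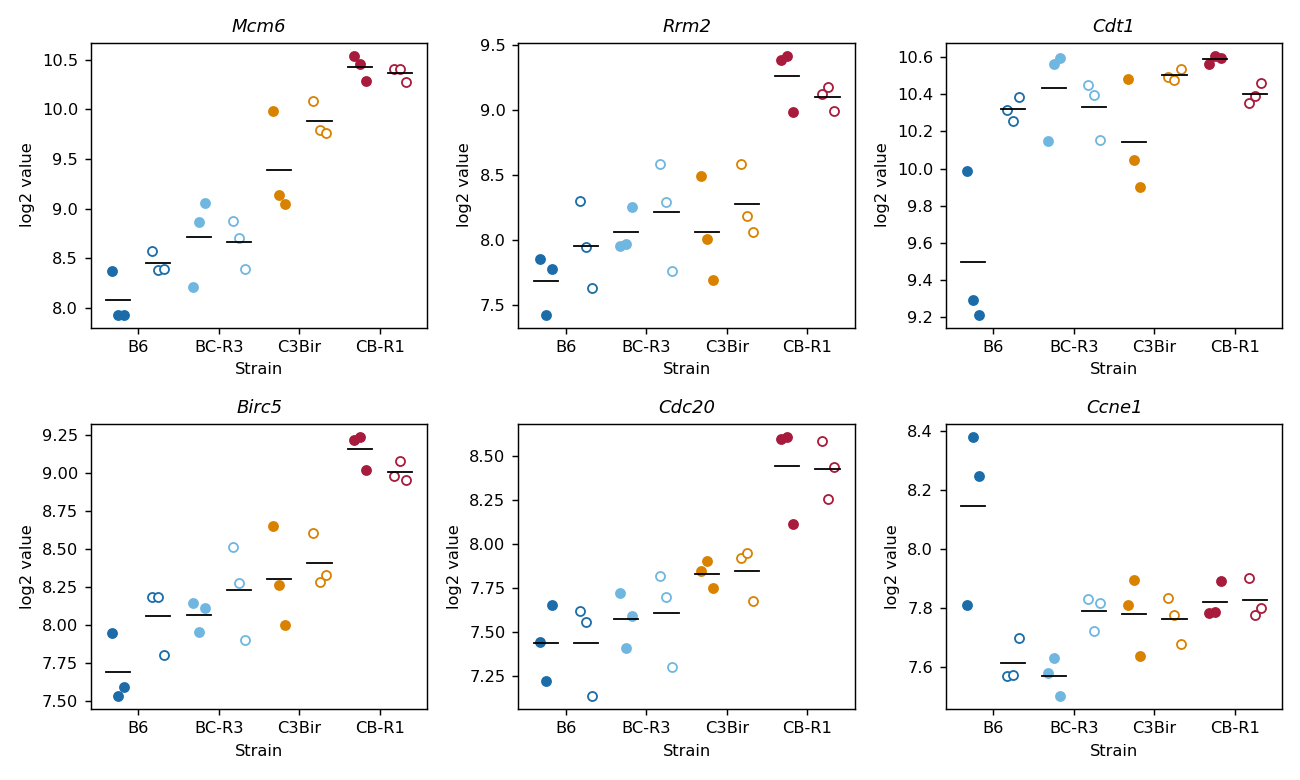
Log2 value of Mcm6, Rrm2, Cdt1, Birc5, Cdc20 and Ccne1 on each array, by group; filled points are unstimulated arrays, open points flagellin, and the line the mean of 3 arrays. Mcm6, Rrm2, Birc5 and Cdc20 are highest on the CB-R1 arrays, Cdt1 is lowest on unstimulated B6 arrays 2 and 3 (9.29 and 9.21), and Ccne1 is highest on them (8.38 and 8.25).

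The strains within the C3Bir background were not alike. Unstimulated CB-R1 had 12 members higher than C3Bir and none lower, against 0.781% and 0.225% of all genes, 8 of replication and 4 of mitosis, with medians of 0.50 and 0.39 and of 0.00 for all genes. The largest were Rrm2 (1.20 ± 0.22, adjusted p = 0.0191), Mcm7 (1.19 ± 0.25), Mcm6 (1.04 ± 0.21) and Mcm5 (0.94 ± 0.17) among replication genes and Birc5 (0.86 ± 0.16), Top2a (0.80 ± 0.17), Cdk1 (0.68 ± 0.15) and Bub1 (0.59 ± 0.12) among mitosis genes. This count rested on the C3Bir arrays: it was 0 without C3Bir unstimulated array 2, 30 without C3Bir unstimulated array 1, and 0 without the 4 arrays with high cytokine means. With flagellin 0 members were called, against 0.0550% of all genes, and 24 of 41 had an unadjusted p under 0.05 by limma, as did 8.09% of all genes. All 18 mitosis genes had positive differences there, with a median of 0.43, and the lowest adjusted p was 0.074, for Ccna2 at 0.59 ± 0.12.

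C3Bir alone against B6 gave fewer calls than the background comparison, with which it shares arrays. Unstimulated, 8 members were higher and 2 lower, against 10.4% and 6.30% of all genes. Higher were Mcm6 (1.31 ± 0.21), Dut (0.82 ± 0.12), Cdt1 (0.65), Mcm4 (0.45), Bub1 (0.64), Birc5 (0.62), Ccna2 (0.40) and Prc1 (0.29); lower were Rfc3 (-0.59) and Ccne1 (-0.37). With flagellin 5 were higher and none lower, against 3.70% and 2.93%: Mcm6 (1.43 ± 0.21, adjusted p = 0.000169), Dut (0.83 ± 0.12, adjusted p = 9.66e-05), Mcm10 (0.30), Tyms (0.40) and the mitosis gene Bub1 (0.47). Without the 4 arrays the unstimulated count was 2, Mcm6 at 1.61 and Dut at 0.92, and the flagellin count 6.

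CB-R1 against B6, the pair that differs in background but shares the B6 version of Cdcs1, was added after the planned comparisons had been seen. In unstimulated cells 36 of 41 members were higher and 1, Ccne1, was lower, against 20.4% and 11.2% of all genes. The largest were Mcm6 (2.34 ± 0.21, a 5.07-fold difference), Mcm7 (1.60 ± 0.25), Rrm2 (1.57 ± 0.22) and Dut (1.36 ± 0.12), followed among mitosis genes by Birc5 (1.47 ± 0.16), Bub1 (1.24 ± 0.12), Top2a (1.06 ± 0.17) and Ccnb2 (1.01 ± 0.17). The members not called were Mcm10, Rfc3, Tyms and Tpx2. With flagellin 25 were higher and none lower, against 5.13% and 3.60%, 9 of 23 replication and 16 of 18 mitosis genes, with medians of 0.40 and 0.72 and of 0.03 for all genes. Mcm6 differed by 1.91 ± 0.21, Rrm2 by 1.14 ± 0.22, Cdc20 by 0.99 ± 0.16, Birc5 by 0.95 ± 0.16 and Nusap1 by 0.93 ± 0.13. Leaving out the 4 arrays gave counts of 23 and 28, with Mcm6 at 2.05 and Rrm2 at 1.41 unstimulated.

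On the B6 background, unstimulated BC-R3 was compared with B6. There 14 members were higher and 5 lower, against 17.6% and 12.7% of all genes; 17 of these 19 were replication genes, 13 higher and 4 lower. Cdt1 (0.94 ± 0.16, adjusted p = 0.000806), E2f2 (0.74 ± 0.15), Mcm4 (0.72 ± 0.13) and Mcm7 (0.70 ± 0.25) were among the higher, and Ccne1 (-0.58 ± 0.10), Tyms (-0.47 ± 0.11), Rfc3 (-0.44 ± 0.13) and Mcm10 (-0.22 ± 0.07) the lower. Of the mitosis genes Bub1 was higher (0.57 ± 0.12) and Mki67 lower (-0.46 ± 0.16). Without the 4 arrays, which leaves 1 unstimulated B6 array, the Cdt1 difference was 0.45. None of the 19 was called when only the arrays of these 2 groups were fitted. With flagellin 0 members were called, against 0.0165% of all genes, and 4 of 41 had an unadjusted p under 0.05 by limma, against 3.64% of all genes.

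The same unstimulated B6 arrays entered the comparison of flagellin with medium in B6. Flagellin-treated B6 cells had 7 members higher and 5 lower than unstimulated ones, against 12.9% and 9.49% of all genes. Both counts are near those shares and are not by themselves a result about the members. Higher were Cdt1 (0.82 ± 0.16, adjusted p = 0.00381), Mcm3 (0.60 ± 0.14), E2f2 (0.58 ± 0.15), Mcm4 (0.56 ± 0.13), Rfc4 (0.53), E2f1 (0.50) and Pcna (0.26), all replication genes. Lower were Ccne1 (-0.53 ± 0.10, adjusted p = 0.00342), Rfc3 (-0.46), Tyms (-0.39), Mcm10 (-0.31) and, of the mitosis genes, Tpx2 (-0.33).

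Cdt1 without flagellin read 9.99, 9.29 and 9.21 on the B6 arrays, 10.15, 10.56 and 10.60 on BC-R3, 10.48, 10.05 and 9.90 on C3Bir and 10.57, 10.61 and 10.60 on CB-R1. With flagellin Cdt1 read 10.32, 10.26 and 10.39 on B6, 10.45, 10.39 and 10.16 on BC-R3, 10.49, 10.48 and 10.54 on C3Bir and 10.35, 10.39 and 10.46 on CB-R1. In B6 arrays 2 and 3 without flagellin Cdt1 was 9.29 and 9.21, and array 1, at 9.99, was nearer the other strains. Ccne1 without flagellin read 7.81, 8.38 and 8.25 on the B6 arrays, 7.58, 7.63 and 7.50 on BC-R3, 7.81, 7.89 and 7.64 on C3Bir and 7.78, 7.79 and 7.89 on CB-R1. With flagellin Ccne1 read 7.57, 7.57 and 7.70 on B6, 7.83, 7.72 and 7.82 on BC-R3, 7.84, 7.78 and 7.68 on C3Bir and 7.90, 7.78 and 7.80 on CB-R1. For Ccne1 the same arrays were the high ones, at 8.38 and 8.25, and all 22 others lay between 7.50 and 7.90. The count of members called in B6 was 4 without unstimulated array 2, 20 without unstimulated array 1, and 0 without the 4 arrays with high cytokine means; Cdt1 was then 0.33 (adjusted p = 0.69).

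In C3Bir, BC-R3 and CB-R1 the flagellin change was called for 0 members and 0% of all genes. By limma 3, 2 and 1 of 41 members had an unadjusted p under 0.05 there, against 7.87%, 8.71% and 2.84% of all genes. The members called also numbered 0 in each of these strains with the replicate block of strain and number. In that limma fit 4, 2 and 2 of 41 had an unadjusted p under 0.05, against 8.81%, 9.83% and 3.21% of all genes. Same-numbered arrays deviated together in C3Bir and in CB-R1. The replication mean of C3Bir was 8.09, 7.73 and 7.61 without and 8.14, 7.93 and 7.90 with flagellin, higher with flagellin on all 3 numbers. In CB-R1 it was 8.40, 8.39 and 8.26 without and 8.29, 8.27 and 8.26 with flagellin, lower on numbers 1 and 2 and alike to 2 decimals on number 3. The range of member differences was -0.11 to 0.49 in C3Bir, -0.16 to 0.31 in BC-R3 and -0.40 to 0.16 in CB-R1. The flagellin change in BC-R3 minus that in B6 was called for 7 members, 2 higher and 5 lower, against 4.16% and 6.38% of all genes: Ccne1 (0.75 ± 0.15) and Tyms (0.70 ± 0.15) higher, and Cdt1 (-0.93 ± 0.23), E2f2 (-0.65 ± 0.21), Mcm3 (-0.64 ± 0.19), E2f1 (-0.56 ± 0.17) and Pcna (-0.40 ± 0.12) lower. None of the 7 was called without the 4 arrays or without BC-R3 unstimulated array 3. The flagellin changes of C3Bir and B6, and of CB-R1 and C3Bir, differed for 0 members and 0% of all genes, with 6 and 2 of 41 members at an unadjusted p under 0.05 by limma, against 13.4% and 4.91% of all genes.

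The Cdcs1 version, C3Bir against B6, averaged over both backgrounds, gave few calls. Unstimulated, 5 members were lower with the C3Bir version and none higher, against 1.71% and 2.06% of all genes: Mki67 (-0.41 ± 0.11), Rfc3 (-0.37 ± 0.09), Ccne1 (-0.31 ± 0.07), Plk1 (-0.28 ± 0.07) and Mcm10 (-0.21 ± 0.05). None was called without B6 unstimulated array 2 or without the 4 arrays, and with flagellin 0 were called, against 0.0385% of all genes, with 2 of 41 at an unadjusted p under 0.05 by limma, against 4.41% of all genes. A further test added after the planned ones asked whether CB-R1 minus C3Bir differed from B6 minus BC-R3. Below it is called the difference of the Cdcs1 effect. CB-R1 carries a long B6 piece that includes Cdcs1, so the locus cannot be told apart there from the rest of the piece. Unstimulated, 32 members were higher and 2 lower, against 18.0% and 10.0% of all genes, with Mcm7 at 1.89 ± 0.35, Mcm6 at 1.66 ± 0.30, Birc5 at 1.24 ± 0.23 and Bub1 at 1.16 ± 0.17. Without the 4 arrays 0 were called, and Mcm6 was 0.77 (adjusted p = 0.47). With flagellin 0 members were called in all arrays, against 0.0165% of all genes, while 26 of 41 members and 6.63% of all genes had an unadjusted p under 0.05 by limma and the lowest adjusted p was 0.14.

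Across the 24 arrays the members varied together, as a description over arrays that share strains and cultures. The median correlation between pairs of mitosis genes was 0.83, between pairs of replication genes 0.66 and between the subgroups 0.64, and within groups, on deviations from the group means, these were 0.51, 0.48 and 0.37. Birc5 had the highest median correlation with its own subgroup (0.91), and Mcm2 led the replication genes (0.83). On their chosen probe sets Ccne1 (-0.26), Tyms (-0.12) and Rfc3 (-0.08) did not vary with the other replication genes. Nor did Tpx2 (-0.08) with the other mitosis genes, and Mcm10 gave 0.34. Each of these genes has other probe sets, which were not correlated here with the other members. The chosen Tyms probe set was dim, between 5.24 and 6.00 on all arrays. Smallest in range over the 8 group means were Gins1 (0.43) and Gins2 (0.44) of replication and Tpx2 (0.33) and Bub1b (0.35) of mitosis, next to within-group SDs of 0.19, 0.11, 0.14 and 0.10.

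Other genes of the pathway, in lists that do not overlap the members, were counted in the same fits. Of 47 other mitosis genes 29 were higher and 1 lower on the C3Bir background unstimulated, and 26 and 1 with flagellin. Over all genes 11.2% were higher and 7.09% lower unstimulated, and 8.74% and 6.17% with flagellin. The mitosis gene called lower both times was Pttg1, securin, which holds back chromosome separation (-1.17 ± 0.11 and -0.91 ± 0.11). Cenpa, the histone of centromeres, was higher by 0.99 and 0.78, and Cep55, of the abscission machinery, by 0.91 and 0.61. Of 39 other replication genes measured out of 42, 13 and 8 were higher and none lower; Asf1b, a histone chaperone, gave 0.51 and 0.44. Median differences were 0.29 and 0.23 for the other mitosis genes and 0.14 and 0.12 for the other replication genes, where all genes had 0.01 and 0.03. Without the 4 arrays, in an alternative added after the results had been seen, 19 other mitosis and 7 other replication genes were higher unstimulated.

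Upstream controls were called in both directions in unstimulated cells. Of 10 genes that drive passage through G1, the phase before S, 1 was higher and 1 lower in each condition. That is near the shares of all genes, 11.2% higher and 7.09% lower unstimulated and 8.74% and 6.17% with flagellin. Ccnd3 (cyclin D3) was higher by 0.36 and 0.42, while Ccnd1 (cyclin D1) gave 0.00 and -0.26, not called. Of 18 cell cycle inhibitors 6 were higher and 3 lower unstimulated, and 5 and 0 with flagellin. Cdkn2c, an inhibitor of the cyclin D kinases, was higher by 0.85 and 0.61, and Btg2, an antiproliferative gene, by 0.95 and 0.76. Cdkn1a, the inhibitor p21, was lower unstimulated (-0.67), with -0.15 not called under flagellin. Cdkn1a was 12.82, 13.60 and 13.58 on the unstimulated B6 arrays and 12.78 or below on all others, and it fell in B6 with flagellin (-1.14 ± 0.21). In B6 with flagellin Ccnd2 (cyclin D2) also fell (-1.62 ± 0.36), and Gmnn, the inhibitor of Cdt1, rose by 1.05 ± 0.27. Ccnd2 was 7.85, 9.87 and 10.01 on the unstimulated B6 arrays and 7.78, 7.95 and 7.15 with flagellin, so array 1 lay within the flagellin range. Gmnn was 7.91, 6.96 and 6.68 without and 8.21, 8.22 and 8.26 with flagellin. Leaving out the 4 arrays, none of these 3 was called in B6: Cdkn1a was -0.63 (adjusted p = 0.69), Ccnd2 -0.23 (adjusted p = 0.844) and Gmnn 0.32 (adjusted p = 0.798). On the background comparison in unstimulated cells 0 of the G1 genes and 4 inhibitors (none lower) were then called, with Cdkn1a at -0.57 (adjusted p = 0.051) and Ccnd3 at 0.44 (adjusted p = 0.0503).

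Markers of other marrow cells differed between strains, not all in the same direction. The progenitor and neutrophil means were highest in CB-R1, while the stromal group mean was highest in unstimulated B6 (8.29). Over all genes 11.2% were called higher and 7.09% lower on the C3Bir background unstimulated, and 8.74% and 6.17% with flagellin. The mean of 10 myeloid progenitor markers was 8.43 to 8.61 on the CB-R1 arrays, 7.69 to 8.42 on those of C3Bir, 7.44 to 7.98 on BC-R3 and 7.17 to 7.90 on B6. Of these markers 6 were higher on the C3Bir background in each condition: Mpo (1.79 unstimulated and 1.46 with flagellin), Prtn3 (1.34 and 1.05), Ctsg (1.06 and 1.00), Myb (1.04 and 0.79), Elane (1.01 and 0.82) and Ms4a3 (0.64 and 0.68), of which Mpo, Prtn3, Ctsg and Elane encode granule enzymes of early myeloid cells. Kit, Cd34, Flt3 and Gata2, markers of earlier progenitors, were not called, and Cd34 lay below the arrays' lower quartile in every group. The mean of 7 neutrophil markers was 11.79 to 12.11 in CB-R1 and 10.52 to 11.68 elsewhere, with 7 and 4 of the 7 higher on the C3Bir background; without the 4 arrays 3 and 4 were, and 5 and 6 of the progenitor markers. The 10 macrophage markers had 0 called unstimulated and 1 lower with flagellin (Adgre1, -0.38). The mean of 11 stromal markers was 8.03 to 8.46 on the CB-R1 arrays, 7.09 to 7.68 on C3Bir, 7.19 to 8.17 on BC-R3 and 7.04 to 8.85 on B6. All 4 megakaryocyte markers were lower on the C3Bir background in both conditions, and B cell means lay between 6.78 and 7.04 on all arrays. The part of the precursor, neutrophil and stromal markers in the cell cycle differences was not tested.

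**Figure D5:**
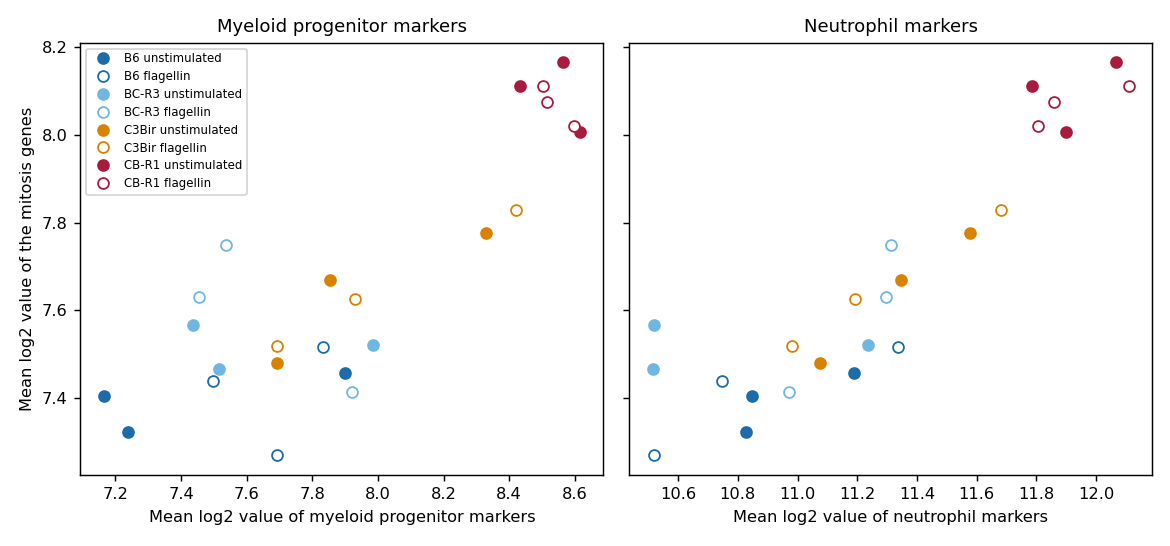
Mean log2 value of the myeloid progenitor markers (left) and of the neutrophil markers (right) on the horizontal axis against the mean of the 18 mitosis genes on the vertical axis, 1 point per array; filled points are unstimulated, open points flagellin, and colours are strains. The 6 CB-R1 arrays sit at the upper right of both panels, with progenitor means of 8.43 to 8.61 and mitosis means of 8.01 to 8.17.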

How the data were processed

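RNA of 24 cultures was measured on Affymetrix mouse arrays, 3 per group. Per the labels' protocols, RNA was extracted with Trizol and labelled by oligo(dT)-primed in vitro transcription, which favours transcript 3' ends. The authors deposited log2 values for 45037 probe sets; the steps that produced these values are not given in the sources used here. They were used as deposited: 45033 probe sets had values, 34944 named 1 gene symbol in the platform annotation, 931 several and 9158 none, which gave 18193 genes. No array pair was identical. The number of arrays limits the precision.

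Members and gene lists were chosen with earlier results of these data known. Differences were tested with limma 3.58.1 (R 4.3.3) on 8 group means over 24 arrays (16 residual degrees of freedom), two-sided, with Benjamini-Hochberg adjustment over all genes within each of 21 comparisons, 4 of them added after the 17 planned ones had been seen. A call is an adjusted p under 0.05; ± is the SE of the difference. Every member is described; those given with their SE are mostly the members with the largest called differences (up to 4 of replication and 4 of mitosis per comparison), 10 set members such as Mcm2 and Cdk1, and those with the widest and narrowest range over groups. Array numbers were checked for pairing by correlating the deviations from group means of same-numbered unstimulated and flagellin arrays, since the labels do not say what a number marks. All 3 pairs correlated in C3Bir (0.31 to 0.48) and in CB-R1 (0.30 to 0.51) but not in B6 or BC-R3; block fits were run as alternatives, with the spread pooled over strains. The fit was tested on simulated data. Alternatives were other scalings, filters, probe set rules, variance models, replicate blocks, a 2-fold minimum and arrays left out. Figures were drawn with matplotlib 3.10.9.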

Additional observations from a re-analysis of the deposited data

Results flagged for a closer look

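The flagellin change differed between BC-R3 and B6 for 7 members, by limma's test of the difference itself. By the same test 4.16% of all genes were called higher and 6.38% lower. BC-R3 minus B6 was 0.75 for Ccne1 and 0.70 for Tyms, and it was -0.93 for Cdt1 and -0.65 for E2f2. Both strains' unstimulated arrays enter this difference, and the count was 0 without the 4 arrays with high cytokine means.

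In unstimulated cells CB-R1 minus C3Bir differed from B6 minus BC-R3 for 34 members, again by limma's test of the difference. Of all genes 18.0% were called higher and 10.0% lower there. CB-R1 carries a long B6 piece that includes Cdcs1, so this was not a test of Cdcs1 alone. The difference was 1.89 for Mcm7, 1.66 for Mcm6, 1.57 for Rrm2 and 1.51 for Mcm2 among replication genes. Among mitosis genes it was 1.24 for Birc5, 1.16 for Bub1, 0.99 for Top2a and 0.95 for Cdk1. Without the 4 arrays the count was 0. In flagellin-treated cells, to which none of the 4 arrays belongs, the same test called 0 members by limma, with 26 of 41 members and 6.63% of all genes at an unadjusted p under 0.05.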

How the results depend on the processing

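Counts are members called of 41 and refer to the comparisons above. Among the results for named genes, no called direction reversed in any alternative run. Of 371 results for named genes 113 were called, 43 of these were called in every alternative run, and 46 others became called in 1 or more. Of 1400 median differences under alternatives 1366 stayed within 1 SD and 34 moved. Median centring, the filter on low values and the trended or robust variance model kept each count within 1.5 times.

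The background counts were 25 unstimulated and 22 with flagellin, each 1 when a 2-fold difference was also required, and 20 to 30 and 17 to 24 when each array was left out in turn. For CB-R1 against B6, 37 unstimulated became 13 at 2-fold and 23 without the 4 arrays with high cytokine means (31 to 37 leaving out each array), and 25 with flagellin became 2 at 2-fold (21 to 27).

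Without the 4 arrays the counts were 0 for flagellin in B6, 2 for C3Bir over B6 in unstimulated cells, and 0 for BC-R3 against B6, CB-R1 against C3Bir, the Cdcs1 version, its difference between backgrounds and the BC-R3 minus B6 change. They were 1 for CB-R1 against C3Bir with flagellin and 1 for the flagellin difference of the Cdcs1 effect. Fitting only the arrays compared gave 0 for flagellin in B6, 3 for C3Bir over B6, 0 for BC-R3 over B6, CB-R1 against C3Bir, the Cdcs1 version and the BC-R3 minus B6 change, and, with flagellin, 2 for C3Bir against B6 and 3 for CB-R1 against C3Bir. At 2-fold the counts were 0 for flagellin in B6, BC-R3 against B6, the Cdcs1 version and the BC-R3 minus B6 change, 1 for C3Bir against B6 in either condition, 3 for CB-R1 against C3Bir and 13 for the difference of the Cdcs1 effect.

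Another alternative left out array 1 in the unstimulated groups of BC-R3, B6 and C3Bir. These 3 arrays differed from the rest of their group in cytokine mean. In B6 and C3Bir only arrays with high cytokine means then remained unstimulated. The counts were 22 for flagellin in B6, 7 for flagellin in C3Bir and 8 for the Cdcs1 version. They were 36 and 9 for CB-R1 against C3Bir unstimulated and with flagellin. For the flagellin changes of C3Bir minus B6, BC-R3 minus B6 and CB-R1 minus C3Bir they were 6, 14 and 5. Quantile normalization gave 4 for the BC-R3 minus B6 change. Averaging all probe sets per gene gave, with flagellin, 3 for C3Bir against B6 and 1 for CB-R1 against C3Bir.

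Leaving out each array in turn gave 4 to 20 for flagellin in B6 (lowest without B6 unstimulated array 2, highest without array 1), 5 to 14 for unstimulated C3Bir against B6 and 11 to 24 for BC-R3 against B6 (both lowest without B6 unstimulated array 2), where the counts changed by over 1.5 times were 11 to 12. It gave 0 to 30 for CB-R1 against C3Bir (without C3Bir unstimulated array 2 and array 1), 0 to 8 for the Cdcs1 version (without B6 unstimulated array 2 and array 1) and 30 to 35 for the difference of its effect. With flagellin it gave 3 to 6 for C3Bir against B6 (lowest without C3Bir flagellin array 1), 0 to 3 for CB-R1 against C3Bir, where the changed counts were 1 to 3, and 0 to 1 for the difference of the Cdcs1 effect. For the changes it gave 0 to 6 for C3Bir minus B6 and 0 to 12 for BC-R3 minus B6 (without BC-R3 unstimulated array 3 and array 1). The cause of these shifts was not tested.

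Array numbers did not pair the samples in B6 and BC-R3, where same-number correlations ran from -0.54 to 0.31; those of C3Bir and CB-R1 were all over 0.1. A replicate block of strain and number gave 19 for flagellin in B6. A replicate block by number gave 21 for CB-R1 against C3Bir unstimulated and 1 with flagellin. As a random replicate block its correlation was 0.0916, with 15 called for flagellin in B6. In these 3 fits the count for flagellin in C3Bir, BC-R3 and CB-R1 was 0, as without the block. Dim members such as Cdc6 and Ccne2 lie near background, which limits what their differences can show.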
